A study of Mus musculus with 12 samples.

Results

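The 33 genes described here cover the path from glucose uptake to lactate export and the hypoxia response that is tied to it. They were chosen by name and by role, and all 33 were found among the 30740 gene symbols of the deposited tables and passed the filter on low counts. They comprise 2 glucose transporters, 15 glycolytic enzymes, 4 lactate dehydrogenase and monocarboxylate transporter genes, 4 genes of pyruvate dehydrogenase kinases and PFKFB regulators, 3 genes of the hypoxia-inducible factor (HIF) and its prolyl hydroxylases, and 5 other HIF targets. RNA-seq libraries came from ventral spinal cord of E12.5 mouse embryos (strain CB6F1/J) that carried Hb9:GFP, a reporter driven by the promoter of Mnx1 (Hb9) that marks spinal motor neurons. Tissue was pooled over embryos, dissociated with papain and sorted for GFP. The groups were GFP-positive cells of Arhgap35 knockout embryos (5 libraries), GFP-positive cells of control littermates (5 libraries), GFP-negative cells of the knockout (1 library) and GFP-negative cells of the control (1 library). Arhgap35 encodes p190, a GTPase-activating protein. The control samples are listed as wild type, while the protocol allows littermates that were wild-type or p190+/-. No label ties the replicates to separate litters, and the p-values therefore reflect the spread among libraries, part of which may be technical.

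Glycolysis splits glucose into pyruvate in the cytosol, and lactate dehydrogenase reduces pyruvate to lactate so that the path can run without oxygen. Nearly every step has isozymes encoded by separate genes, and cells at rest, dividing cells and neurons are known to use different sets of them. HIF is a transcription factor whose alpha subunit is destroyed while oxygen is present, after prolyl hydroxylases have marked it, and many glycolytic genes are its textbook targets.

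Library totals ran from 23.7 to 33.8 M estimated counts, and 3 counts, taken as the detection floor, corresponded to 0.0887 to 0.127 CPM (counts-per-million values). Arhgap35 stood at 23.9 to 29.2 TPM (transcripts-per-million values, a level per transcript length) in the 5 knockout and 36.8 to 55.5 TPM in the 5 control GFP-positive libraries. Its log2 fold change was -0.83 (adjusted p = 0.024, edgeR quasi-likelihood test with Benjamini-Hochberg adjustment, used throughout; 0.162 in the fit blocked by replicate number). A separate entry under its older symbol, Grlf1, stood at 0 to 3.02 TPM in the knockout and 8.73 to 26.4 TPM in the control GFP-positive libraries. The log2 fold change of Grlf1 was -2.96 (unadjusted p = 0.00149) and did not pass the adjusted threshold (adjusted p = 0.9999). The extent of the deletion was not known here, and reads that fall outside it say nothing of the genotype. The sort was checked with marker lists. Motor neuron markers (8 genes, all called higher in GFP-positive cells) summed to 1542 to 2043 TPM in GFP-positive and 51.9 to 56.6 TPM in GFP-negative libraries, and Mnx1 itself to 231 to 316 TPM in GFP-positive and 0.428 to 0.53 TPM in GFP-negative libraries. The labels call the GFP-negative cells motor neurons too, although Mnx1 was nearly absent there. GFP-negative cells were instead rich in markers of neural progenitors (602 to 761 TPM in GFP-positive, 2952 to 3237 TPM in GFP-negative libraries, 9 of 9 genes called lower in GFP-positive cells) and of proliferation (75.2 to 134 TPM in GFP-positive, 671 to 752 TPM in GFP-negative libraries, 10 of 10 lower). The same held for markers of interneurons (51.1 to 203 TPM in GFP-positive, 771 to 856 TPM in GFP-negative libraries, 8 of 10 lower) and of erythroid cells (15.7 to 175 TPM in GFP-positive, 754 to 1053 TPM in GFP-negative libraries, 6 of 6 tested lower). In sorted bulk samples, a change in the makeup of the sort and a change in RNA per cell cannot be told apart.

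GFP-positive motor neurons and GFP-negative ventral cord cells differed in most of these genes and in the shares of 10 of 13 isozymes. Of the 33 genes, 16 were higher and 10 were lower in GFP-positive cells and 7 did not pass the threshold, where 30.1% of all 19763 genes tested were called higher and 31.8% lower. Differences of at least 2-fold were found for 8 genes on the higher side, where the share of all genes was 12.4%, and for 2 on the lower side, where it was 10.5%. The median log2 fold change of the 33 was 0.23, against 0.018 over all genes. In the fit blocked by replicate number, where the sorts are compared within replicate 1 alone, it was 0.076, against -0.0055 over all genes. The levels of the 2 sorts did not overlap for 23 of the 33 genes, where 57.9% of all genes tested did not overlap. The summed level of the 14 glycolytic enzymes other than Gapdh was 4252 to 5248 TPM in GFP-positive and 2883 to 2977 TPM in GFP-negative libraries.

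**Figure D1:**
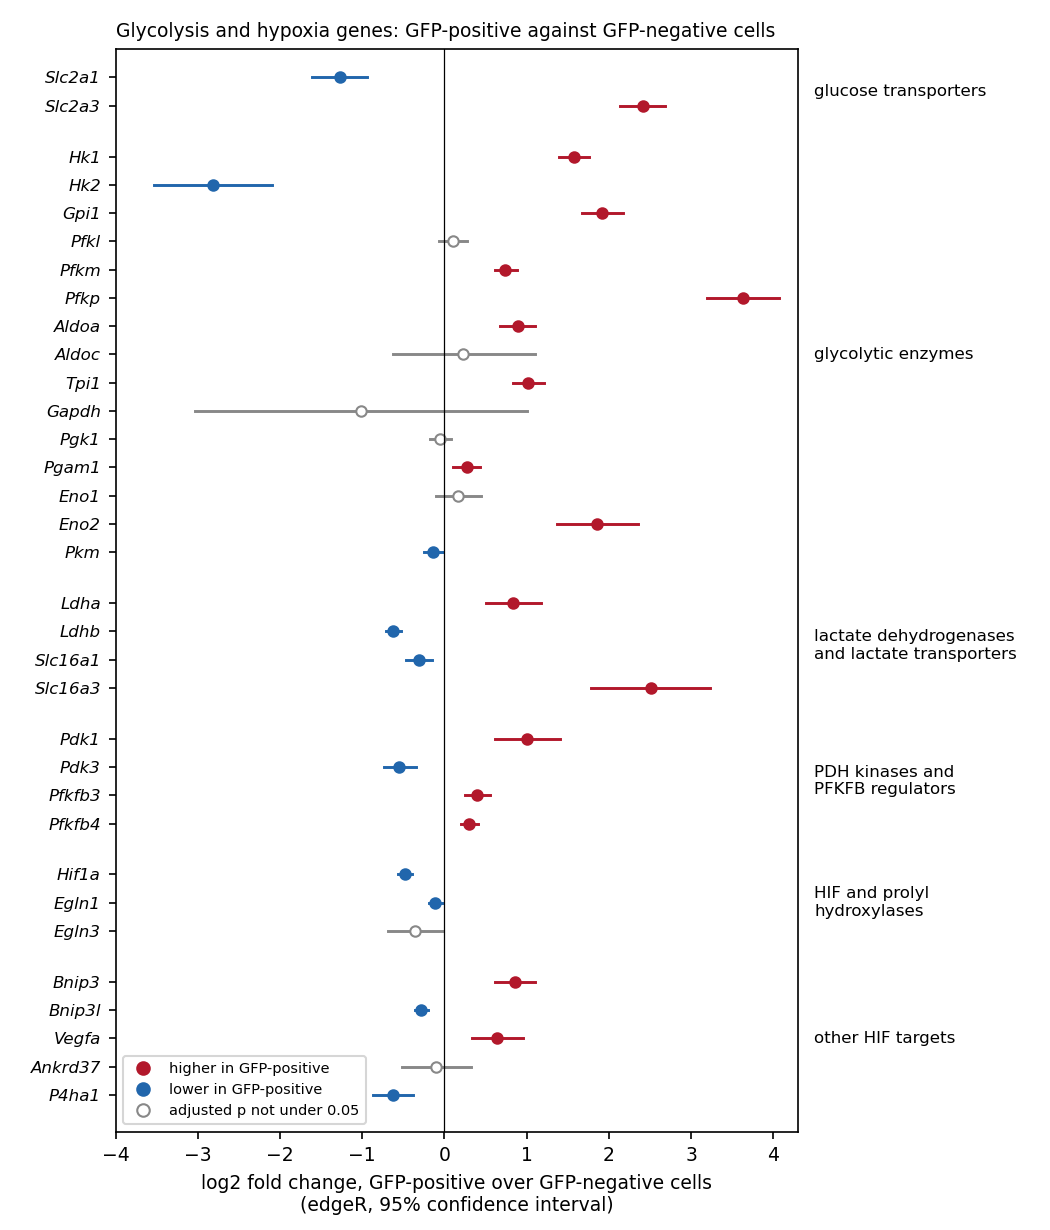
Log2 fold change of each of the 33 genes, GFP-positive over GFP-negative cells (x axis, edgeR fit on 10 against 2 libraries with genotype as a covariate), with 95% confidence intervals and genes grouped by role. Filled points passed the adjusted threshold of 0.05: 16 genes lie to the right of 0 (red), 10 to the left (blue), and the 7 open grey points did not pass.

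The glucose transporters differed in opposite directions. Slc2a3 encodes GLUT3, the high-affinity transporter of neurons. Its lowest, median and highest levels were 41.2, 54.2 and 62.7 TPM over the 10 GFP-positive libraries, against 11 TPM in the knockout and 9.47 TPM in the control GFP-negative library. Slc2a1 encodes GLUT1, the transporter of red cells, of the endothelium of the blood-brain barrier and of many dividing cells. It ran the other way, at 10.2, 11.7 and 20.8 TPM in GFP-positive libraries, against 31.6 and 30.5 TPM in the GFP-negative libraries of the knockout and the control. Neither transporter's levels overlapped between the sorts. Slc2a3 was 5.32-fold higher in GFP-positive cells (log2 fold change 2.41, standard error 0.125, adjusted p = 5.47e-09) and Slc2a1 was 2.42-fold lower (log2 fold change -1.27, standard error 0.152, adjusted p = 8.84e-06). Slc2a1 therefore made up 19.1 ± 3.83% of the summed TPM of both genes in GFP-positive cells (SD, n = 10), against 75.2 ± 1.5% in GFP-negative cells (SD, n = 2). Erythroid markers were lower in GFP-positive cells too, as given above, and their part in the Slc2a1 difference was not tested.

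The shares of an isozyme in the summed TPM of its family were compared by a two-sided exact permutation test of 10 against 2 libraries, whose smallest possible p is 0.0303. Of 13 shares, 10 reached that smallest p, with an adjusted p of 0.0394 over the 13. The 10 were Slc2a1, Hk1, Pfkl, Pfkm, Pfkp, Eno1, Ldha, Pdk1, Bnip3 and Slc16a1. Shares of one family depend on each other, and the call of each needs both GFP-negative libraries: with either left out, or with labels exchanged within genotype only, the smallest p that can be reached is too large and 0 shares were called.

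**Figure D2:**
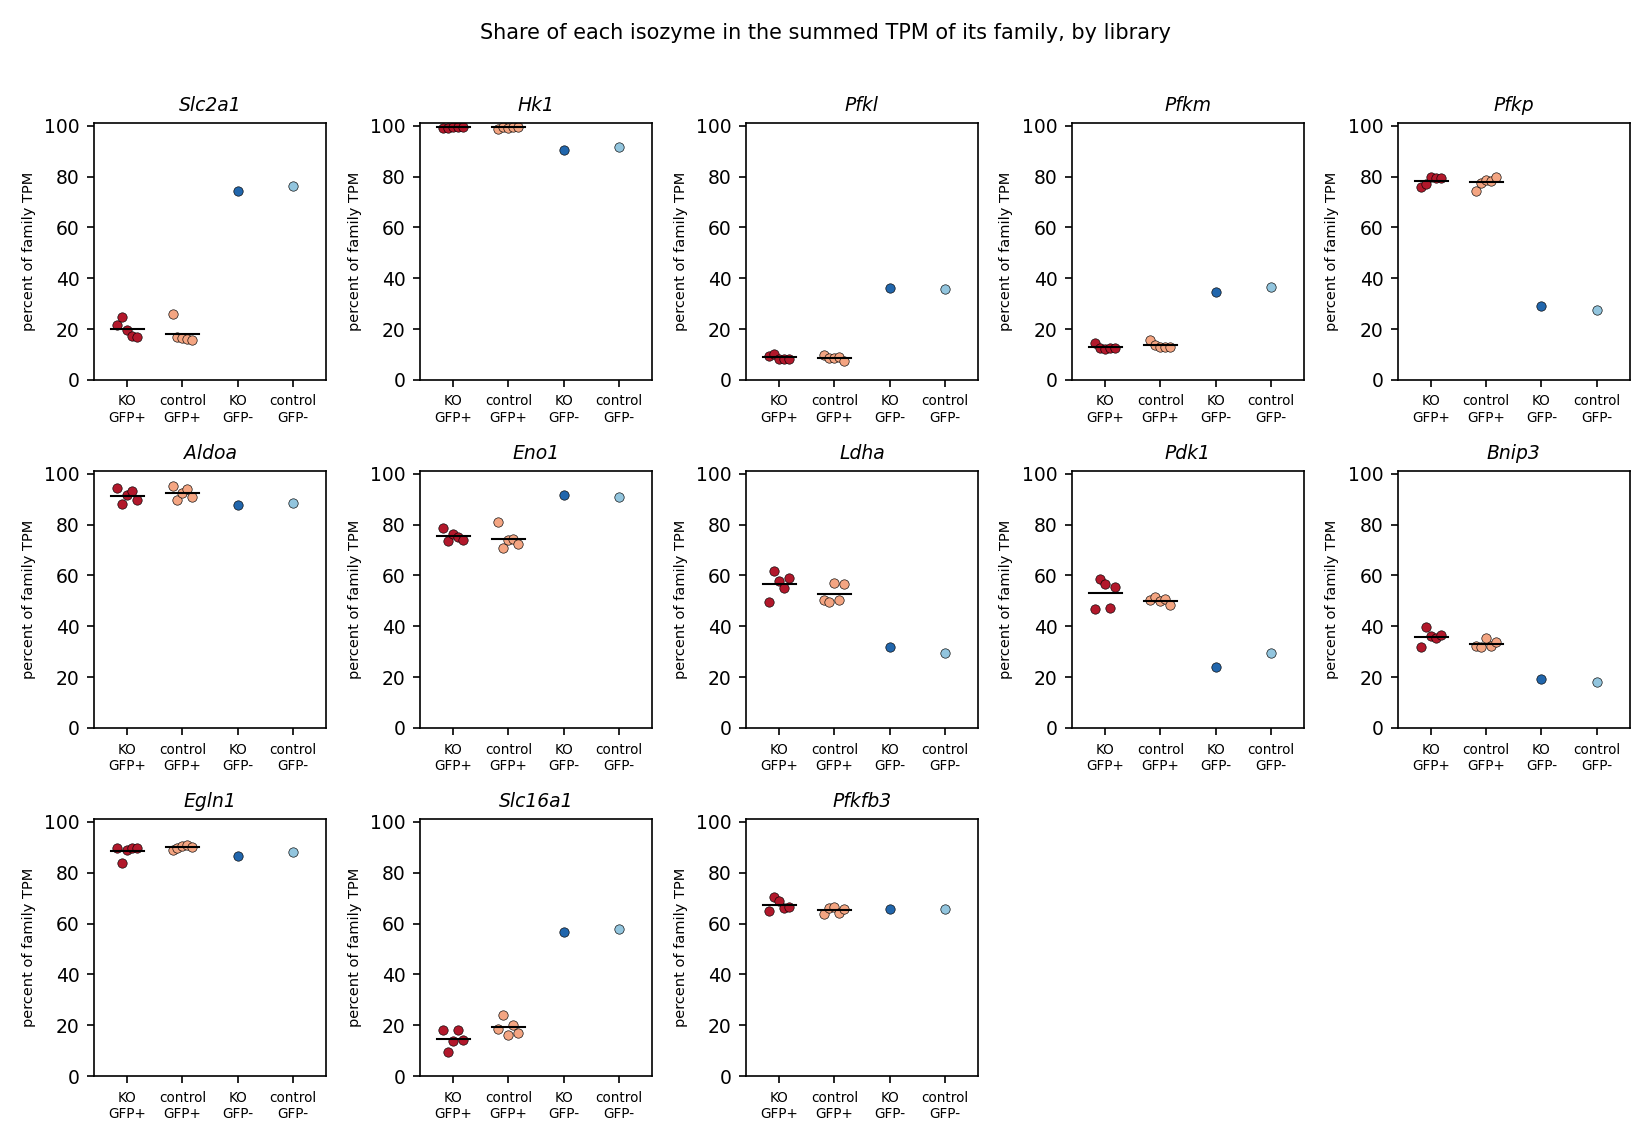
Percent of its family's summed TPM held by each of 13 isozymes (y axis, 0 to 100), 1 point per library, in knockout GFP-positive, control GFP-positive, knockout GFP-negative and control GFP-negative cells (bars, means of 5). The sorts stand apart for 10 isozymes, such as Pfkp at 74.3 to 79.8% in GFP-positive and 27.6 to 29.1% in GFP-negative libraries, while the genotypes overlap for all 13.

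Phosphofructokinase, which commits sugar to glycolysis, showed the widest difference among the 33 genes. Pfkp, the platelet isozyme, which is also abundant in brain, lies on chromosome 13 (6579768 to 6648777, minus strand, GRCm38). It stood at 505, 692 and 789 TPM as the lowest, median and highest GFP-positive library, against 55.6 TPM in the knockout and 49.4 TPM in the control GFP-negative library. That is 12.4-fold higher in GFP-positive cells (log2 fold change 3.63, standard error 0.2, adjusted p = 3.31e-08). By level per length of single entries, Pfkp had rank 2 of the 33 in GFP-positive cells, after the pyruvate kinase gene Pkm, and rank 19 in GFP-negative cells. This order leaves out the counts that went to copies of genes such as Gapdh and Eno1, described below. Pfkm, the muscle isozyme, was 1.68-fold higher, with 107, 112 and 123 TPM in GFP-positive and 66.4 and 65.7 TPM in GFP-negative libraries of knockout and control (log2 fold change 0.74, adjusted p = 2.64e-07). Pfkl, the liver isozyme, did not pass the threshold, with 67, 72.9 and 92.6 TPM in GFP-positive and 69.4 and 64.1 TPM in GFP-negative libraries (log2 fold change 0.099, 95% confidence interval -0.067 to 0.27, adjusted p = 0.285). As shares of phosphofructokinase, Pfkp held 78 ± 1.84%, Pfkm 13.3 ± 1.19% and Pfkl 8.73 ± 0.898% in GFP-positive cells (SD, n = 10). In GFP-negative cells they held 28.3 ± 1.07%, 35.7 ± 1.42% and 36 ± 0.35% (SD, n = 2), so that no isozyme dominated there. Exons of Pfkp share 748 bases with Pitrm1 on the other strand and exons of Pfkm share 359 bases with Senp1 and Gm26513. Among the 33 genes, exons of Pkm (767 bases), Gpi1 (741), Bnip3 (504) and Hif1a (478) also overlap other genes, and further members do so by fewer bases. Reads within such shared bases cannot be told apart, also where the other gene lies on the other strand, because the libraries are not stranded.

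Hexokinase traps glucose in the cell by phosphorylation. Hk1, the housekeeping isozyme of brain, stood at 156, 175 and 195 TPM in GFP-positive libraries, against 57.8 and 57.2 TPM in the GFP-negative libraries of knockout and control. It was 2.98-fold higher in GFP-positive cells (log2 fold change 1.57, standard error 0.0853, adjusted p = 4.31e-09). Hk2, the inducible isozyme of muscle and of many dividing cells, stood at 0.49, 0.845 and 1.95 TPM in GFP-positive libraries, against 5.97 and 5.26 TPM in the GFP-negative ones. It was 7.04-fold lower (log2 fold change -2.82, standard error 0.328, adjusted p = 8.89e-06). The steepest fall among the 33 genes was thus that of a gene at a low level, and Hk1 held 99.4 ± 0.324% of both hexokinases' TPM in GFP-positive cells (n = 10), against 91.1 ± 0.663% in GFP-negative cells (SD, n = 2).

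The remaining steps to pyruvate did not move alike. Gpi1 encodes glucose-6-phosphate isomerase, the step between hexokinase and phosphofructokinase. Its levels were 413, 484 and 529 TPM in GFP-positive libraries, against 118 TPM in the knockout and 113 TPM in the control GFP-negative library, 3.78-fold higher (log2 fold change 1.92, adjusted p = 2.11e-08). Aldoa, the aldolase of muscle and most tissues, stood at 433, 462 and 562 TPM in GFP-positive and 267 and 249 TPM in GFP-negative libraries (log2 fold change 0.89, adjusted p = 3e-06). Tpi1, triose-phosphate isomerase, stood at 323, 361 and 418 TPM in GFP-positive and 173 and 175 TPM in GFP-negative libraries (log2 fold change 1.02, adjusted p = 3.93e-07). These 3 genes did not overlap between the sorts. Pgk1, phosphoglycerate kinase, did not pass the threshold, with 224, 252 and 297 TPM in GFP-positive and 267 and 249 TPM in GFP-negative libraries (log2 fold change -0.049, 95% confidence interval -0.18 to 0.085). Pgam1, phosphoglycerate mutase, was 1.2-fold higher (157, 167 and 192 TPM in GFP-positive, 128 and 149 TPM in GFP-negative libraries, log2 fold change 0.27, adjusted p = 0.00702). It missed the threshold with the replicate block (0.20, adjusted p = 0.0927) and without the knockout GFP-negative library. Pkm, pyruvate kinase, had the highest mean level of the 33 single entries in both sorts, at 937, 1010 and 1111 TPM in GFP-positive and 1092 and 1090 TPM in GFP-negative libraries. The order says nothing of Gapdh with its copies. In the GFP-negative libraries of knockout and control the Gapdh entry stood at 307 and 275 TPM. Its copies Gm13394 (616 and 642 TPM) and Gm12033 (231 and 217 TPM) come on top. The small difference of Pkm (log2 fold change -0.14, adjusted p = 0.0402) missed the threshold with the replicate block (-0.081, adjusted p = 0.31). Of 25 alternative fits, 7 called it.

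Aldoc, the aldolase of brain, was variable between replicates. Its level in knockout replicates 1 to 5 was 26.2, 76.7, 41.6, 33.4 and 61.4 TPM, in control replicates 1 to 5 it was 23.3, 51.3, 38.5, 27.5 and 50.9 TPM, and the GFP-negative libraries of knockout and control had 37.8 and 31.8 TPM. Replicate 1 was the lowest in both genotypes, and replicates 2 and 5 were the highest in both. Against GFP-negative cells the log2 fold change was 0.23 (95% confidence interval -0.63 to 1.10, adjusted p = 0.634). In the fit blocked by replicate number, where the sorts are compared within replicate 1 alone, the direction turned and the gene was called lower (-0.52, adjusted p = 0.00711).

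Enolase, the step before pyruvate kinase, has a common form and a neuronal form. Eno2, the neuron-specific enolase used as a marker of mature neurons, stood at 146, 222 and 269 TPM in GFP-positive libraries, against 52.6 and 53.4 TPM in the GFP-negative libraries of knockout and control (log2 fold change 1.86, standard error 0.224, adjusted p = 2.51e-05). Eno1, the common form, did not pass the threshold, at 573, 646 and 746 TPM in GFP-positive and 586 and 531 TPM in GFP-negative libraries (log2 fold change 0.17, 95% confidence interval -0.097 to 0.44, adjusted p = 0.248). Eno1 still held most of the enolase TPM in motor neurons, 75 ± 2.97% (SD, n = 10), against 91.3 ± 0.628% in GFP-negative cells (SD, n = 2). The lowest Eno2 levels among GFP-positive libraries were those of replicate 1, with 155 TPM in the knockout and 146 TPM in the control. The same pair had the lowest Pfkp shares (75.8% in the knockout, 74.3% in the control) and the most proliferation marker TPM (118 and 134, against at most 103 in the other GFP-positive libraries). The part of other cells in the spread between replicates was not tested.

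At the branch from pyruvate to lactate the subunits moved in opposite directions. Ldha encodes the M subunit of lactate dehydrogenase, linked to lactate formation, and Ldhb the H subunit, linked to lactate use. Ldha stood at 266, 320 and 420 TPM as the lowest, median and highest GFP-positive library, against 180 TPM in the knockout and 167 TPM in the control GFP-negative library (log2 fold change 0.84, standard error 0.152, adjusted p = 0.000474). Ldhb stood at 246, 259 and 275 TPM in GFP-positive and 384 and 398 TPM in GFP-negative libraries (log2 fold change -0.62, standard error 0.0426, adjusted p = 3.14e-08). Neither overlapped between the sorts, and Ldha rose to 54.7 ± 4.52% of both subunits' TPM in GFP-positive cells (SD, n = 10), against 30.8 ± 1.67% in GFP-negative cells (SD, n = 2). The monocarboxylate transporters, which carry lactate and pyruvate through the plasma membrane, changed in the same sense. Slc16a3 (MCT4, the low-affinity exporter of glycolytic cells) stood at 17.9, 26.3 and 52 TPM in GFP-positive and 5.33 and 4.67 TPM in GFP-negative libraries, 5.69-fold higher (log2 fold change 2.51, standard error 0.329, adjusted p = 4.22e-05). Slc16a1 (MCT1, the widely expressed form) stood at 5.02, 5.52 and 5.92 TPM in GFP-positive and 6.94 and 6.46 TPM in GFP-negative libraries (log2 fold change -0.31, adjusted p = 0.00225; adjusted p over 0.05 without the knockout GFP-negative library). Its share of both transporters was 17 ± 3.93% in GFP-positive cells (n = 10), against 57.3 ± 1.03% in GFP-negative cells (SD, n = 2).

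Promoter windows of 4 of these genes are printed as examples: both lactate dehydrogenase subunits, which moved in opposite directions, the lactate exporter Slc16a3 and Pfkp. Each window holds 250 bases before and 50 after a RefSeq gene start (GRCm38.p6, first window listed for the symbol, 5′ to 3′ on the gene's strand). Capitals mark ACGTG and GCGTG, the core letters of the HIF response element, or their reverse complements CACGT and CACGC, and overlapping matches run together. The windows are chr7:46845554-46845853 (plus strand) for Ldha, chr6:142507908-142508207 (minus strand) for Ldhb, chr11:120948817-120949116 (plus strand) for Slc16a3 and chr13:6648722-6649021 (minus strand) for Pfkp. The bases just after the start in the Ldha window were not found in a GENCODE M21 transcript of the gene, while those of the other windows were.
Ldha: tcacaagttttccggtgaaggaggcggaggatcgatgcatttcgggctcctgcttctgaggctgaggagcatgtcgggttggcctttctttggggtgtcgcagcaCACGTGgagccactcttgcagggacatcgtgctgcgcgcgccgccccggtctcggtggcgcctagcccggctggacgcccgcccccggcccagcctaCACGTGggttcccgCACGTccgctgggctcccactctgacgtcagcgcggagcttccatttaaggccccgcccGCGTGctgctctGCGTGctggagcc
Ldhb: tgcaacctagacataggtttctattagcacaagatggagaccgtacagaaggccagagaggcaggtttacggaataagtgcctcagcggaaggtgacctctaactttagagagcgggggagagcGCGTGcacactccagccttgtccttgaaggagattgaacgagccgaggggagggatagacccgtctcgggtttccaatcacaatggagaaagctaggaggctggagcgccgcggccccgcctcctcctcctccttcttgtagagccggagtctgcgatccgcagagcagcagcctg
Slc16a3: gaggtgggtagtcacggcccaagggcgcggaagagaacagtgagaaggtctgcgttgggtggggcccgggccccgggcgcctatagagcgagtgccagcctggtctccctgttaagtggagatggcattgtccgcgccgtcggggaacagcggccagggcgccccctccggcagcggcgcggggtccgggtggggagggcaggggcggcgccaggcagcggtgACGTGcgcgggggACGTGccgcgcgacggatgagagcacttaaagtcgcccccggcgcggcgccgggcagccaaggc
Pfkp: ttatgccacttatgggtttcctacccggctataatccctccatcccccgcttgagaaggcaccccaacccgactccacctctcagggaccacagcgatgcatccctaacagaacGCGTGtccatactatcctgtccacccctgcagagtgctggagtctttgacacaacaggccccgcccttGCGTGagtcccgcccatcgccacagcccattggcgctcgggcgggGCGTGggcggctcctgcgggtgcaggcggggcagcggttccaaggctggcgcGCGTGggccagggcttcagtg
Counted on both strands, Ldha held 7 matches, Pfkp 4, Slc16a3 2 and Ldhb 1. A CACGTG matches on both strands and counts as 2, so the 7 matches of Ldha lie in 5 marked stretches. Of the 31 genes with a window, 24 (77.4%) held at least 1 match, against 43.8% of 27025 symbols with a window of the same length. For ACGTG alone the shares were 58.1% of the 31 genes and 19.7% of all symbols, and for GCGTG alone 54.8% and 32.5%. These genes were listed for being glycolytic or HIF targets, and genes that fell in GFP-positive cells held matches too, such as Slc16a1 with 5, Hk2 with 2 and Slc2a1 with 2. Windows without a match included those of Hk1, Gpi1, Eno2 and Vegfa. A match of 5 letters is a description of the sequence and not a binding site.

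Regulators of pyruvate entry and of phosphofructokinase also changed in part. Pdk1, a HIF-induced kinase that switches off pyruvate dehydrogenase, stood at 8.47, 10.5 and 15.5 TPM in GFP-positive and 5.19 and 5.32 TPM in GFP-negative libraries of knockout and control (log2 fold change 1.01, adjusted p = 0.000336). Pdk3, another kinase of this family, was lower, with 8.54, 9.99 and 11.4 TPM in GFP-positive and 16.6 and 12.7 TPM in GFP-negative libraries (log2 fold change -0.55, adjusted p = 0.000121). Pdk1 held 51.5 ± 4.04% of both in GFP-positive cells (n = 10), against 26.6 ± 4% in GFP-negative cells (SD, n = 2). Pfkfb3 and Pfkfb4 make fructose 2,6-bisphosphate, the activator of phosphofructokinase. Both were modestly higher (log2 fold changes 0.40 and 0.30, adjusted p = 0.000158 and 9.08e-05), and the Pfkfb3 share was 66.3 ± 2.02% in GFP-positive and 65.8 ± 0.0837% in GFP-negative cells (SD, n = 10 and 2; two-sided exact permutation p = 0.818).

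Hif1a, the oxygen-regulated subunit itself, was lower in GFP-positive cells. Its levels were 60.9, 67.7 and 73.6 TPM in GFP-positive libraries, against 89.9 and 94.8 TPM in the GFP-negative libraries of knockout and control (log2 fold change -0.48, standard error 0.0437, adjusted p = 4.33e-07). HIF is regulated mainly through the stability of its protein, which RNA does not show. Of the prolyl hydroxylases, Egln1 (PHD2) differed little (50.9, 52.8 and 55.2 TPM in GFP-positive, 54.9 and 56.9 TPM in GFP-negative libraries, log2 fold change -0.11, adjusted p = 0.0242), and 14 of 25 alternative fits called it. Egln3 (PHD3), itself a HIF target, did not pass the threshold, with 5.38, 6.05 and 9.72 TPM in GFP-positive and 8.6 and 7.5 TPM in GFP-negative libraries (log2 fold change -0.36, 95% confidence interval -0.69 to -0.035, adjusted p = 0.0528). Egln1 held 89.2 ± 1.96% of both in GFP-positive and 87.4 ± 1.34% in GFP-negative cells (SD, n = 10 and 2; two-sided exact permutation p = 0.333).

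HIF targets outside glycolysis did not share a direction: 2 were higher, 2 lower and 1 was not called. Bnip3, a mitophagy receptor, stood at 69.5, 76.1 and 102 TPM in GFP-positive and 42.7 and 41.6 TPM in GFP-negative libraries (log2 fold change 0.86, adjusted p = 1.67e-05). Its relative Bnip3l, which clears mitochondria from maturing red cells, stood at 143, 150 and 155 TPM in GFP-positive and 179 and 188 TPM in GFP-negative libraries (log2 fold change -0.28, adjusted p = 2.1e-05). Bnip3 held 34.5 ± 2.56% of this pair in GFP-positive cells (n = 10), against 18.7 ± 0.785% in GFP-negative cells (SD, n = 2). Vegfa, the vascular growth factor, was higher (77.2, 107 and 134 TPM in GFP-positive, 61.4 and 60.7 TPM in GFP-negative libraries, log2 fold change 0.64, adjusted p = 0.00192), though not with the replicate block (0.46, adjusted p = 0.102). P4ha1, a collagen prolyl hydroxylase, was lower (14, 18.8 and 25.7 TPM in GFP-positive, 25.2 and 31.8 TPM in GFP-negative libraries, log2 fold change -0.63, adjusted p = 0.000253). Ankrd37 did not pass (8.63, 11.8 and 16 TPM in GFP-positive, 13.9 and 9.97 TPM in GFP-negative libraries, log2 fold change -0.1, adjusted p = 0.684), and its exons share 406 bases with Lrp2bp and Ufsp2 on the other strand.

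Gapdh, the glyceraldehyde-3-phosphate dehydrogenase gene and a common reference gene, could not be read from its own entry. Its levels in knockout replicates 1 to 5 were 245, 45.2, 33.4, 28.3 and 284 TPM, in control replicates 1 to 5 they were 276, 36.6, 28.3, 151 and 283 TPM, and the GFP-negative libraries of knockout and control had 307 and 275 TPM. Low libraries (28.3 to 45.2 TPM) and high ones (151 TPM or more) occurred in both genotypes. At least 10% of the 31-base sequences of Gapdh occur in each of 47 other annotated genes, mostly processed pseudogenes, and 37 of these have an entry in the tables. The Gapdh entry held 1.44 to 13% of the estimated counts of Gapdh and these 37 copies, and Gm13394 and Gm12033 held most of the rest. The sum was 501 to 617 CPM in all 12 libraries. Summed in this way, which was decided once these values were known, the log2 fold change was 0.02 between the sorts (adjusted p = 0.807), against -1.01 (adjusted p = 0.357) from the Gapdh entry alone. The same holds to a lesser degree for Pgam1, whose entry took 46.1 to 58.6% of its counts with Pgam1-ps2 and a further copy, for Pgk1 with Gm5537 (74.5 to 87.7%) and for Eno1 with Gm4735 and Eno1b (82.5 to 91.5%). With copies summed, Pgk1 was called lower in GFP-positive cells (log2 fold change -0.16, adjusted p = 0.0454), while Pgam1 remained called higher (0.18, adjusted p = 0.0364) and Eno1 not called (0.19, adjusted p = 0.116).

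**Figure D3:**
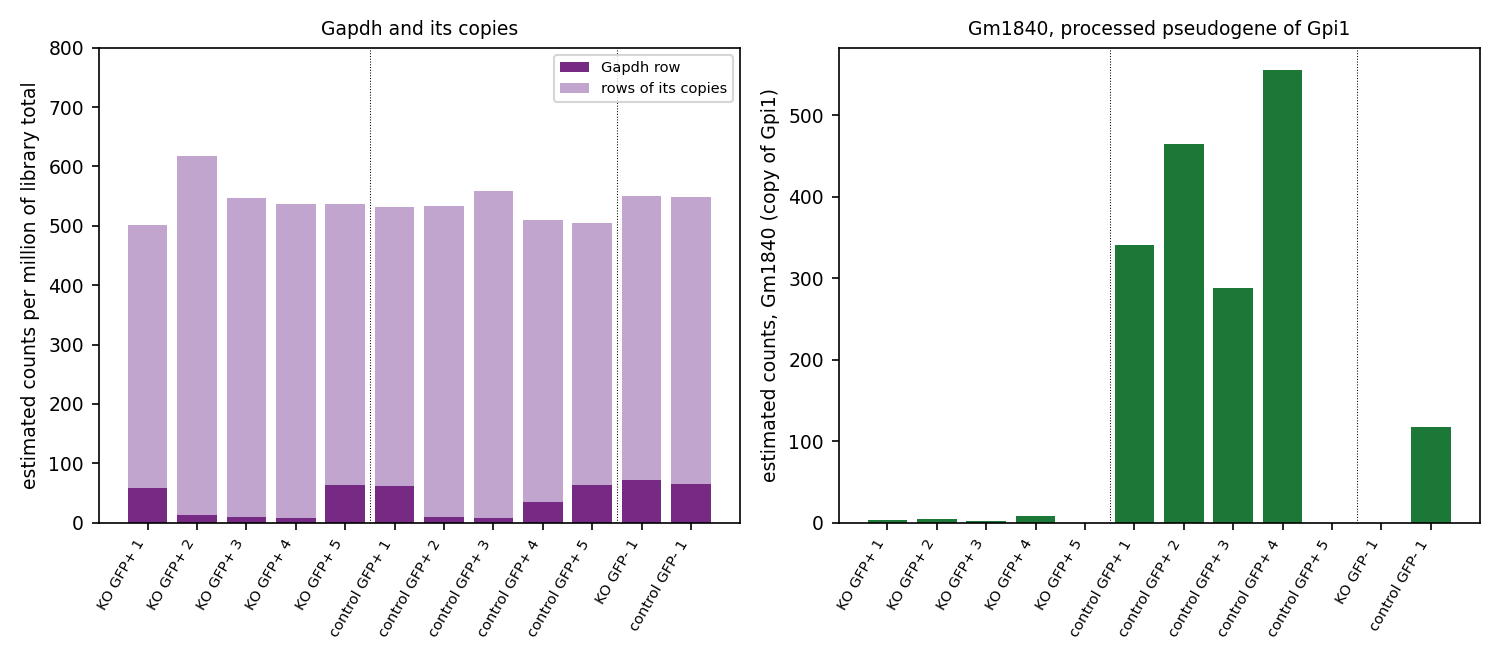
Left, estimated counts, in CPM, held by the Gapdh entry (dark) and by the entries of its copies (light) in each of the 12 libraries, which sum to 501 to 617 in every library. Right, estimated counts of Gm1840, a processed pseudogene of Gpi1, which is at 288 or more in 4 of 5 control GFP-positive libraries and at 8.56 or less in all 5 knockout GFP-positive libraries.

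Genes around this path, from lists of related genes, were called in both directions, and their counts stand here as descriptions beside those of all genes. Of 17 tested other isozymes and glucose transporters, 6 were higher and 5 lower in GFP-positive cells, where of all genes 30.1% were called higher and 31.8% lower, so these shares lay near the background. Slc2a10 was 0.341 ± 0.171 TPM in GFP-positive cells (SD, n = 10), against 7.13 and 6.67 TPM in the GFP-negative libraries of knockout and control (log2 fold change -4.80, adjusted p = 1e-07). Slc2a4 (GLUT4, the insulin-responsive transporter) was lower (log2 fold change -1.69), as was Bpgm, bisphosphoglycerate mutase of red cells (-0.63), and Emb, the partner protein of monocarboxylate transporters, was higher (1.07). Glycogen genes were called higher for 6 and lower for 4 of 12, beside the same 30.1% and 31.8% of all genes. Pygb, the brain glycogen phosphorylase, was at 129 ± 10.7 TPM in GFP-positive cells (SD, n = 10) and 37.5 and 36.4 TPM in the GFP-negative libraries (log2 fold change 1.75, adjusted p = 7.57e-09). Pgm2 (1.23) and the phosphorylase kinase subunit Phka1 (1.26) were also higher.

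The pentose phosphate pathway had 2 genes higher and 3 lower of 8 tested, where of all genes 30.1% were called higher and 31.8% lower. Rpe, ribulose-phosphate epimerase, was lower (log2 fold change -1.27, adjusted p = 8.18e-08) and Taldo1, transaldolase, was lower (-0.35), while Tkt, transketolase (0.36), and Pgd, 6-phosphogluconate dehydrogenase (0.28), were higher. Of 11 genes of pyruvate dehydrogenase and the mitochondrial pyruvate carrier, 6 were higher and 3 lower, beside the same shares of all genes. Pdha1, the catalytic E1 subunit, was at 114 ± 8.68 TPM in GFP-positive cells (SD, n = 10), against 67.5 and 66.1 TPM in the GFP-negative libraries (log2 fold change 0.75, adjusted p = 3.13e-06). Dlat (0.27) and the carrier subunit Mpc2 (0.34) were higher and Pdk2 (-0.52) was lower. Of 3 tested gluconeogenesis genes, G6pc3 (0.54) and Pck2 (0.33) were higher and Pcx, pyruvate carboxylase, was lower (-0.77).

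Partners of HIF were called higher for 5 and lower for 2 of 11, where 30.1% of all genes were higher and 31.8% lower. Arnt2, the neuronal HIF beta subunit, was at 163 ± 8.47 TPM in GFP-positive cells (SD, n = 10), against 105 and 107 TPM in the GFP-negative libraries of knockout and control (log2 fold change 0.59, adjusted p = 8.02e-07). Arnt, the common beta subunit, was lower (-0.42, adjusted p = 2.8e-05). Cul2 (0.44) and Tceb1 (0.29), parts of the ubiquitin ligase that removes HIF, were higher. Of 26 further hypoxia targets, 10 were higher and 11 lower, which is not far from the shares of all genes. Ppfia4 had the lowest p (39.5 ± 3.91 TPM in GFP-positive cells, SD, n = 10, against 5.65 and 6.44 TPM in the GFP-negative libraries of knockout and control, log2 fold change 2.73, adjusted p = 3.93e-09) and P4ha2 was higher too (1.85). Pnrc1 (-1.12) and the histone demethylase gene Kdm3a (-1.16) were lower.

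Loss of Arhgap35 in GFP-positive cells came with no difference in these genes that passed the threshold. The edgeR test called 0 of the 33, and DESeq2 and limma on log2 TPM also called 0, where edgeR called 0.0343% of 17487 genes. At an unadjusted p under 0.05 stood 3 genes, where the share of all genes was 2.14%, and with the replicate block 6 genes, where it was 5.08%. The levels of the knockout and control libraries overlapped for all 33 genes, where 0.498% of all genes did not overlap. For 28 of the 33 genes both 95% confidence limits were less than 1.5-fold away from equality, so larger effects of the knockout were outside the interval for those genes.

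Estimates leaned to one side. The log2 fold change lay above 0 for 28 of the 33 genes, where 48.9% of all genes lay above 0, and its median was 0.087, against -0.0016 over all genes. These genes share the same 10 libraries and are not independent. With 1 library left out, the median ran from 0.047 (without knockout replicate 2) to 0.13 (without knockout replicate 1 or control replicate 5). Knockout replicate 2 had the highest level of the 10 GFP-positive libraries for 21 of the 33 genes, while it was highest for 6.56% of 16402 genes with a mean of at least 1 TPM. Without it the median was 0.047, 25 genes lay above 0 and 0 stood at an unadjusted p under 0.05. A lower median follows from leaving out the library where most of these genes are highest, so it says nothing more. The same library had the most erythroid marker TPM, 175 against 15.7 to 98.9 in the other knockout and 18.8 to 70 in the control GFP-positive libraries. It also led in endothelial (16.7 TPM, against at most 13.6 in the others), mesenchyme and pericyte (7.85 TPM, against at most 7.48) and sensory neuron and neural crest markers (20.4 TPM, against at most 16.4). Of the erythroid list 5 of 7 genes could be tested between the genotypes, of the endothelial list 6 of 7, with all estimates above 0 and 0 called in either. The median log2 fold change was 0.63 for the erythroid and 0.70 for the endothelial list. At an unadjusted p under 0.05 stood 0 erythroid genes and 1 endothelial gene, where the share of all genes was 2.14%. With the replicate block it was 0 erythroid and 4 endothelial genes, where the share was 5.08%. The globin gene Hba-a2 stood at 67.8 TPM in knockout replicate 2, against 5.23 to 41.6 TPM in the other knockout and 7.84 to 29 TPM in the control libraries. The part of these cells in the levels of knockout replicate 2 was not tested. Interneuron markers lay below 0 in the knockout for 10 of 10 genes tested (median log2 fold change -0.42), with 0 called and 0 at an unadjusted p under 0.05, or 4 with the replicate block. Their summed level was 57.1 to 152 TPM in knockout and 51.1 to 203 TPM in control GFP-positive libraries, and their part in the estimates was not tested either.

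**Figure D4:**
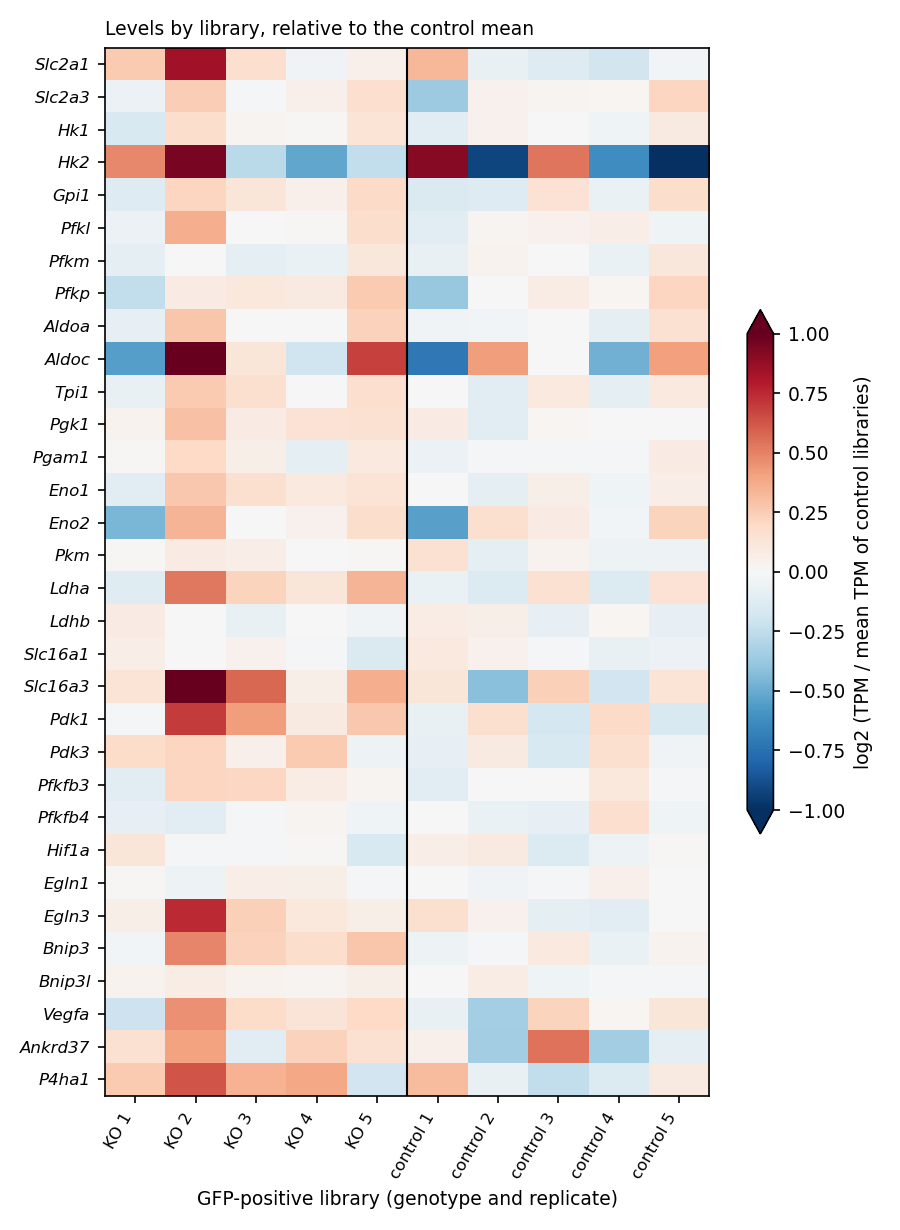
Log2 of each gene's TPM over its mean in the 5 control libraries (colour scale from -1 to 1, values beyond it at the end colours), for 32 genes (rows, Gapdh left out) in the 5 knockout and 5 control GFP-positive libraries (columns). Knockout replicate 2 is red for most genes, while replicate 1 of both genotypes is blue for genes such as Pfkp, Eno2 and Aldoc.

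Known HIF targets among those with the lower unadjusted p-values show how the libraries of the genotypes spread. Other HIF-linked genes had higher ones in edgeR. They included Vegfa (log2 fold change 0.18, unadjusted p = 0.147), Slc2a1 (0.20, 0.198) and Ankrd37 (0.19, 0.287). Pfkfb3 (0.074, 0.213) and Egln1 (0.0052, 0.875) lay closer to equality. Slc16a3 stood at 26.3, 52, 35.5, 24.9 and 30.7 TPM in knockout replicates 1 to 5, against 26, 17.9, 28.2, 20.9 and 26.3 TPM in control replicates 1 to 5. Groups overlapped, the log2 fold change was 0.48 (95% confidence interval -0.0098 to 0.96, unadjusted p = 0.0539), and without knockout replicate 2 it was 0.26. Bnip3 stood at 71.2, 102, 85.3, 81.9 and 88 TPM in knockout and 70, 72.1, 77.7, 69.5 and 74.4 TPM in control libraries, overlapping only through knockout replicate 1 and control replicates 2, 3 and 5 (log2 fold change 0.21, unadjusted p = 0.0299, adjusted p = 0.9999). Without knockout replicate 2 it was 0.14. Pdk1 stood at 9.49, 15.5, 12.8, 10.2 and 11.5 TPM in knockout and 9.07, 10.7, 8.47, 10.9 and 8.62 TPM in control libraries (log2 fold change 0.30, unadjusted p = 0.0626; 0.13 without knockout replicate 2). Ldha stood at 269, 420, 340, 317 and 369 TPM in knockout and 279, 266, 324, 266 and 322 TPM in control libraries (log2 fold change 0.23, unadjusted p = 0.0913; 0.14 without knockout replicate 2). None of these differences passed the adjusted threshold. Slc16a3, Bnip3, Pdk1 and Ldha were each highest in knockout replicate 2, so lower estimates without it follow from that choice and say nothing more.

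The other genes at an unadjusted p under 0.05 were Pgk1 and P4ha1. Pgk1 stood at 248, 297, 256, 268 and 269 TPM in knockout and 256, 224, 245, 243 and 242 TPM in control libraries (log2 fold change 0.14, unadjusted p = 0.0259; 0.091 without knockout replicate 2). Summed with its copy it had an unadjusted p of 0.157. P4ha1 stood at 19.9, 25.7, 21.1, 21.7 and 14.5 TPM in knockout and 20.7, 15.8, 14, 15.1 and 17.7 TPM in control libraries (log2 fold change 0.21, unadjusted p = 0.0493; 0.13 without knockout replicate 2). Pgk1 and P4ha1 were highest in that library too, so their lower estimates without it follow from that choice. Within pairs of the same replicate number, the knockout level was the higher one in all 5 pairs for Pfkp, Aldoc, Slc16a3 and Bnip3 and the lower one in all 5 pairs for Pfkm. These are 4 and 1 of the 33 genes. The share of all genes with such pairs was not computed, so the counts are descriptions only. The pair differences were small for Pfkp (log2 ratios of 0.031 to 0.13) and Pfkm (-0.10 to -0.0012), and with the block no gene passed the adjusted threshold either (lowest adjusted p = 0.641, Aldoc).

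Isozyme choice did not differ detectably between the genotypes. None of 13 shares passed (two-sided exact permutation of 5 against 5 libraries, smallest possible p = 0.00794, lowest p = 0.0635 for the Slc16a1 share, adjusted p = 0.387). The Pfkp share was 78.3 ± 1.76% in knockout and 77.7 ± 2.07% in control libraries, and the Ldha share 56.7 ± 4.75% in knockout and 52.8 ± 3.7% in control libraries (SD, n = 5 each; exact permutation p = 0.627 and 0.19). The Slc2a1 share was 20 ± 3.35% in knockout and 18.2 ± 4.45% in control libraries (SD, n = 5 each; exact permutation p = 0.484). The knockout effect in GFP-negative cells minus that in GFP-positive cells passed for none of the 33 genes in edgeR, where 0.0253% of all genes were called. At an unadjusted p under 0.05 stood 0 of the 33, where the share of all genes was 1.78%, and 1 with the block, where it was 3.1%. With 1 GFP-negative library per genotype this fit assumes that the lone libraries vary like the replicated ones, and its interval was wide for most genes (both limits less than 1.5-fold from equality for 18 of 33).

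Gm1840, the copy of Gpi1, was the exception among the entries tied to these genes. It is a processed pseudogene on chromosome 8 (5639580 to 5641011, GRCm38) that shares 12.6% of the 31-base sequences of Gpi1, and Gpi1 itself lies on chromosome 7, 17.6 Mb from Arhgap35. Its estimated counts were 3.53, 4.14, 1.52, 8.56 and 0 in knockout replicates 1 to 5, against 341, 465, 288, 555 and 0 in control replicates 1 to 5, with 0 in the knockout and 118 in the control GFP-negative library. Knockout libraries were thus all near 0, as was control replicate 5. The entry did not pass the count filter in the 10 libraries. Unfiltered, its log2 fold change was -6.54 (standard error 1.29, unadjusted p = 0.000919, adjusted p = 0.999), and without control replicate 5 it passed the filter and was called (-6.86, adjusted p = 0.000758). That library is the control that goes against the pattern, and the entry was called in no other fit that tested it: without any 1 of the knockout libraries the adjusted p was 0.999 to 1, as it was with limma on log2 TPM. Gpi1 itself stood at 416, 529, 495, 473 and 521 TPM in knockout and 413, 416, 503, 435 and 514 TPM in control libraries (log2 fold change 0.075, unadjusted p = 0.391; 0.04 with Gm1840 added).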

How the data were processed

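Poly-A RNA libraries (TruSeq v2, which does not keep strand, 50-base single reads) were quantified with kallisto on mm10, per the submitters' processing notes, with no version given. The authors deposited estimated counts per gene symbol (expected counts, not normalized; 39.2% of values are whole) and TPM. The step from transcripts to symbols is not stated. The deposited TPM columns sum to 974800 to 1018241, so they were rescaled in a way not stated. All 12 libraries were matched to their groups by title, and 0 columns were left over.

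Estimated counts were rounded, filtered with filterByExpr by group, scaled by TMM and tested over all genes with edgeR's robust quasi-likelihood test (edgeR 4.0.16, R 4.3.3), with Benjamini-Hochberg adjustment and a threshold of 0.05. The genotypes were compared over the 10 GFP-positive libraries, the sorts over all 12 libraries with a term for genotype, and the difference of knockout effects in a fit of 4 group means. TPM served for levels, and for isozyme shares, compared by two-sided exact permutation. Fold changes are edgeR's log2 values with 95% confidence intervals. Scripts were tested on simulated counts. Copies are genes sharing at least 10% of a gene's 31-base sequences in GENCODE M21 transcripts; their counts were summed only in an alternative added after the data were seen. Gene positions are from GENCODE M21 on GRCm38, the assembly of mm10, and promoter windows from RefSeq, which matched 31 of the 33 genes.

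GFP-positive libraries of the same replicate number deviated together from their group means (r = 0.381, 0.252, 0.179, 0.277 and 0.31). No other pair exceeded 0.104. The numbers were therefore used as pairs or as a block, but only in alternatives and in the counts of pairs. The main fits and the main permutation tests of shares were unpaired. Whether the GFP-negative libraries belong with the GFP-positive ones of the same number was not tested, although the blocked comparison of the sorts rests on it. What a number stands for is not stated.

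The 33 genes, the lists of related genes and markers and the tests were chosen with earlier results of these data known. All 33 genes are named. From each related list up to 4 called genes with the smallest p in the comparison of the sorts are named (some items are not reported here), and copies only where they carry counts. Alternatives were DESeq2 size factors, library size only, no filter, a filter at 1 CPM, DESeq2 1.42.0, limma 3.58.1 on log2(TPM + 1) and log2(TPM + 0.1) (filtered at a mean TPM of 1 or unfiltered), the replicate block, either genotype alone, no genotype covariate, and each library left out.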

Additional observations from a re-analysis of the deposited data

Results flagged for a closer look

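Among groups of 5 libraries, 92 sets of values (TPM levels and isozyme shares) were tested for a single library far from the others, and 6 had one. Chance alone flags about 1 in 20. In the knockout GFP-positive group, replicate 2 stood apart for Slc2a1 (20.8 TPM, others 11.3 to 13.9), for Egln3 (9.72 TPM, others 6.04 to 6.84) and for the Egln1 share of both prolyl hydroxylases (84%, others 89 to 89.8%). This library also had the most erythroid marker TPM (175), as given above, and the part of those cells in these values was not tested. Knockout replicate 1 stood apart for the Pfkm share of phosphofructokinase (14.7%, others 12 to 12.7%). In the control GFP-positive group, replicate 1 stood apart for Slc2a1 (14.6 TPM, others 10.2 to 11.4) and for its share of both glucose transporters (26.1%, others 15.7 to 16.8%). It was also the library with the most proliferation markers (134 TPM). Interneuron markers stood at 203 TPM there and at 202 TPM in control replicate 4, where Slc2a1 was lowest (10.2 TPM). The part of such cells in these values was not tested.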

How the results depend on the processing

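Between the sorts, edgeR and its alternatives called 22 to 27 of the 33 genes (26 as reported). Of the values of single genes and shares under these alternatives, 66 fell short of the threshold and 9 newly passed it with their direction kept. The replicate block called 24 and changed the call of Aldoc, Pgam1, Pkm and Vegfa, whose blocked values stand in the report, and no other. Aldoc reversed there (-0.52), and Gapdh reversed with its copies summed (0.02). Of isozyme shares, 10 were called as reported and 0 with labels exchanged within genotype. Leaving out 1 library gave 0 to 12, with 0 whenever a GFP-negative library was left out, as 10 libraries against 1 cannot reach the threshold. Between the genotypes and for the interaction 0 of the 33 genes were called under every alternative run, the replicate block included. Between the genotypes 0 shares were called either, but the paired test of shares cannot reach the threshold (smallest possible p = 0.0625 with 5 pairs, exact sign-flip) and says nothing about their stability; shares were not tested for the interaction. Pfkfb4 reversed without passing (-0.044 and -0.045 with limma on log2 TPM at pseudocounts of 1 and 0.1, and -0.044 unfiltered); the cause was not tested. A further 20 changes of sign between the genotypes (9 genes) and 52 for the interaction (17 genes) were smaller than the standard error. The GFP-negative side rests on 2 libraries, and copies, overlapping exons and the unstated scaling of TPM limit single genes. The detection floor of 3 counts is a fixed level and does not measure the counting error of a gene.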
